A study of Mus musculus with 2 samples.

Results

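The VEGF receptors and co-receptors were followed as 6 genes of the 16383 in the count tables. They were listed by name: the receptor genes *Flt1* (VEGFR1), *Kdr* (VEGFR2) and *Flt4* (VEGFR3), the co-receptor genes *Nrp1* and *Nrp2*, and *Pgf*. *Pgf* encodes a ligand, placental growth factor, and not a receptor. At least 1 unique molecular identifier (UMI) of these genes was found in 2476 of the 4209 control cells and in 3020 of the 3710 NASH cells analysed. The cells were liver nonparenchymal cells (NPCs) of male C57BL/6 mice. The mice were 8 weeks old at the start and were fed for 6 weeks, either a control diet or a methionine- and choline-deficient (MCD) diet, which lacks both nutrients and produces nonalcoholic steatohepatitis (NASH). Cells of 3 mice were pooled per diet into 1 library, so each diet is 1 sample. No test between the diets is possible and no p-value is given.

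VEGFR2 is the main signalling receptor for VEGF-A in blood vessels. VEGFR1 binds VEGF-A, VEGF-B and placental growth factor tightly but signals weakly, and its soluble form captures ligand. VEGFR3 is the receptor for VEGF-C and VEGF-D and is best known from lymphatic endothelium, although the fenestrated liver sinusoidal endothelial cells (LSECs) carry it too. Neuropilins 1 and 2 lack a kinase, present VEGF to the receptors and also bind class 3 semaphorins together with plexins. VEGF signalling maintains the fenestrae of LSECs. The main ligand genes *Vegfa*, *Vegfb* and *Vegfc* were not analysed here.

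The promoters of *Flt1* and *Kdr* are shown because these receptor genes had opposite orders between the 2 kinds of liver endothelium described next. Each line gives the 250 bases before the RefSeq start (GRCm38.p6), 5′ to 3′ on the strand of the gene. Capitals mark every match, on either strand, to 5 motifs. The ETS core, which ETS factors of endothelium recognise, was searched as GGAAG. The GC box of Sp1-type factors was searched as GGGCGG, and the TATA box that positions the polymerase as TATAAA. For GATA factors the letters were GATAA, and for the core of the hypoxia response element they were ACGTG. Matches to different motifs did not overlap in these windows.
Flt1, chr5:147726012-147726261, minus strand: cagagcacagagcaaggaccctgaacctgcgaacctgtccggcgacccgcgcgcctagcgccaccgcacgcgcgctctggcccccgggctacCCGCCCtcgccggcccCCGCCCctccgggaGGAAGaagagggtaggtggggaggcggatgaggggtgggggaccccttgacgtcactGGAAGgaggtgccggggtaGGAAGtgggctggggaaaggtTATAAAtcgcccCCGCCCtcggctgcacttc
Kdr, chr5:75978456-75978705, minus strand: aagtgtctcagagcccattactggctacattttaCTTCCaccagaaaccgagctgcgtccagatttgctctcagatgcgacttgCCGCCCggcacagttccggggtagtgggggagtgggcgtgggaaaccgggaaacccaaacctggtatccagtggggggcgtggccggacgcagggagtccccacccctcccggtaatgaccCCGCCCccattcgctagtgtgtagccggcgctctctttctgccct
The *Flt1* window held 3 ETS cores, 3 GC boxes and 1 TATA box, which began 31 bases before the start. The *Kdr* window held 1 ETS core, 2 GC boxes and no TATA box. Among 32851 promoter windows of the same length, 64.1% held the ETS core, 32.7% the GC box and 12.4% the TATA box. The letters GATAA, found in 22.6% of all windows, and ACGTG, found in 16.6%, were in no window of the 6 genes. Other spellings of the GATA and hypoxia sites were not searched. The RefSeq windows of *Flt4*, *Nrp1* and *Pgf* lie wholly inside the GENCODE spans of these genes, and those of *Nrp2* and *Kdr* overlap them in part. The windows of *Flt4* and *Nrp1* held 1 and 3 ETS cores, and those of *Nrp2* and *Pgf* held 0. A match describes the letters of the window and not a bound site.

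*Flt1* and *Kdr* lie on chromosome 5, at 147561604-147726011 and 75932827-75978458, both on the minus strand (GENCODE M21, GRCm38). *Flt4* lies at chr11:49609263-49652739, *Nrp1* at chr8:128358604-128503363 and *Nrp2* at chr1:62703285-62818695, all on the plus strand. *Pgf* lies at chr12:85166635-85177790 on the minus strand. *Nrp1* spans the microRNA gene *Mir1903*, and *Nrp2* overlaps *Gm29083* and *Gm37121*. None of these 3 has a column in the tables.

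Clustering without the 6 genes, of which only *Pgf* was among the 2000 most variable genes, gave 20 clusters. The LSEC-like class had 1261 control and 1575 NASH cells. It joined a cluster led by *Lyve1*, which encodes a hyaluronan receptor, and a shallower one led by *Dll4*, which encodes a Notch ligand. Each had 11 of the 18 LSEC markers among its 50 leading genes. The class of vascular endothelial cells (VECs), VEC-like, had 152 control and 331 NASH cells. It joined a cluster led by *Bmp4*, a gene of the TGF-beta family, with *Fbln2* and *Edn1*, and a cluster led by *Gja5*, which encodes the arterial connexin 40, with *Adgrg6*. All 8 pan-endothelial markers were detected in both classes and both diets. Both classes together made up 33.6% of the control and 51.4% of the NASH library. Of all cell labels, 21 occurred in both libraries. Levels are given as CPM, the UMIs of a gene per 1000000 UMIs of the cells, with 95% intervals for counting error only. These intervals cover neither the differences between mice nor those between cells. UMI counts were not scaled by transcript length, so levels are compared for the same gene between cells and not between genes.

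The 3 receptor genes were split between the endothelial classes. *Kdr* and *Flt4* were highest in LSEC-like cells and *Flt1* in the *Bmp4*-led VEC-like cells, over both libraries. *Kdr* stood at 6109 CPM (6038 to 6182) in LSEC-like cells, 2523 (2430 to 2619) in *Bmp4*-led and 2495 (2320 to 2680) in *Gja5*-led cells. The 2 VEC-like clusters did not differ beyond their intervals. *Flt4* stood at 2325 CPM (2281 to 2370) in LSEC-like, 866 (764.1 to 977.6) in *Gja5*-led and 723.3 (673.7 to 775.6) in *Bmp4*-led cells, over both libraries. In the control alone the last pair was apart, at 845.6 (704.4 to 1007) and 470.4 CPM (398.8 to 551.1), and in NASH it was at 885.8 and 830.9 CPM. *Flt1* stood at 2366 CPM (2276 to 2459) in *Bmp4*-led, 1701 (1663 to 1739) in LSEC-like and 1652 (1510 to 1804) in *Gja5*-led cells. The *Gja5*-led level of *Flt1* thus lay within counting error of the LSEC-like one. In each library *Flt1* was lower in LSEC-like than in *Bmp4*-led cells, with 1600 and 2290 CPM in the control and 1800 and 2400 in NASH.

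Both neuropilin genes were highest in LSEC-like cells, with smaller distances between classes. *Nrp1* stood at 1206 CPM (1174 to 1238) in LSEC-like, 872 (817.4 to 929.2) in *Bmp4*-led and 836.1 (736.1 to 946) in *Gja5*-led cells. *Nrp2* stood at 778 (752.6 to 804), 624.2 (578.1 to 672.9) and 454.5 (381.6 to 537.4) CPM in the same order. For *Nrp2* no neighbouring intervals overlapped, whereas the VEC-like clusters overlapped for *Nrp1*. *Pgf* was almost undetected, with 3 control and 5 NASH UMIs. Of these 8 UMIs, 4 lay in 1 single cell of the 13 stellate cell or fibroblast-like cells of the NASH library and 1 in LSEC-like cells.

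**Figure D1:**
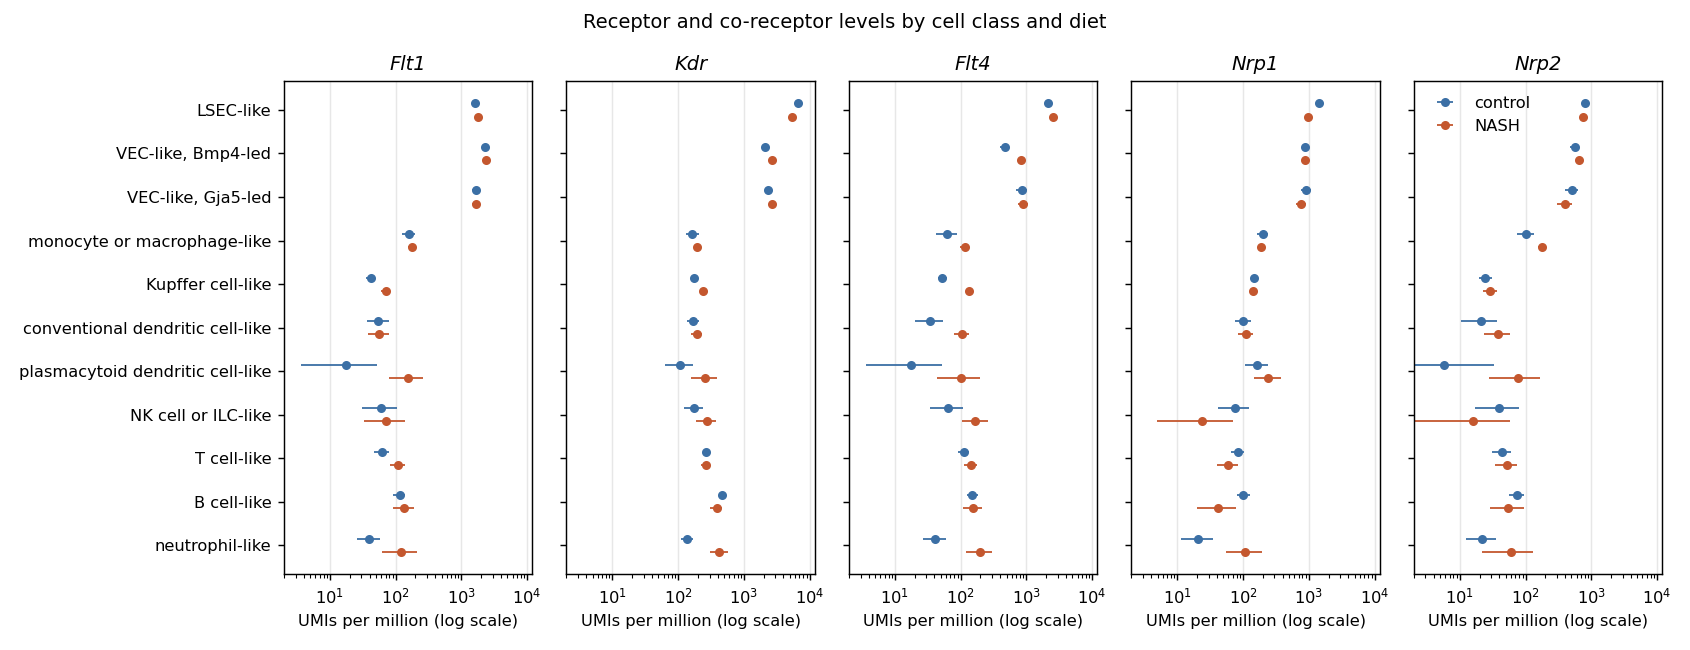
Level of each gene (CPM, log axis) in LSEC-like cells, the 2 VEC-like clusters and 8 classes of blood and myeloid cells, for the control (blue) and NASH (orange) library. Points are sums over the cells of a class and bars are exact Poisson 95% intervals. *Kdr* reaches 6750 CPM in control LSEC-like cells, and *Flt1* is highest in the Bmp4-led cells.

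Detection per cell followed the levels. With each cell thinned to 1000 UMIs, *Kdr* was found in 98.8% of LSEC-like and 86.8% of VEC-like cells. *Flt4* was found in 85.0% and 50.5%, and *Flt1* in 76.1% and 82.6%. The corresponding shares were 64.8% and 56.5% for *Nrp1*, and 49.6% and 42.5% for *Nrp2*. B cell-like cells, which are not known to carry these receptors in quantity, gave 12% for *Kdr*, 8.28% for *Flt4*, 5.11% for *Flt1*, 4.75% for *Nrp1* and 4.23% for *Nrp2*. The endothelial shares were far above this background. Thinning left out shallower cells, so that 969 of 1261 control and 1030 of 1575 NASH LSEC-like cells, 146 of 152 and 325 of 331 VEC-like cells, and 438 of 627 and 130 of 194 B cell-like cells remained. The median depth before thinning was 1382 UMIs in LSEC-like, 2555 in VEC-like and 1123 in B cell-like cells. Without thinning the endothelial shares ran from 59.3% to 97.6%.

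Outside endothelium most of the signal of the receptor genes kept the proportions of endothelial RNA. In B cell-like cells the 5 genes stood at 6.55% to 8.86% of their LSEC-like level, and 9 endothelial marker genes such as *Cdh5*, *Clec4g* and *Oit3* stood at 4.11% to 10.3%. The split of *Kdr*, *Flt4* and *Flt1* UMIs in B cell-like cells (63.6%, 20.7% and 15.7% in the control) had intervals that include the LSEC-like values of the same library. Such levels are read here as background. *Nrp1* stood above most endothelial markers in all of the 5 myeloid classes except neutrophil-like cells. It reached 15.9% of its LSEC-like level in monocyte or macrophage-like cells, 15.6% in plasmacytoid dendritic cell-like cells and 12% in Kupffer cell-like cells. In these 3 classes *Kdr* stood at 2.48% to 3.28% of its LSEC-like level and the endothelial markers had medians of 2.3% to 4.18%. Among these 3 classes, single markers reached 58.8% in Kupffer cell-like cells and 19.3% in plasmacytoid dendritic cell-like cells. In neutrophil-like cells *Nrp1* was at 2.64%, near the marker median of 2.73%. In conventional dendritic cell-like cells it was at 8.74%, above the marker median of 2.45% and above every marker except *Dnase1l3* at 11.9%. Monocyte or macrophage-like cells also held *Nrp2* at 20.1% and *Flt1* at 10.1% of the LSEC-like level, above all 9 endothelial markers there, the highest of which was at 5.18%. An unnamed cluster led by the haemoglobin gene *Hbb-bt* (9 control and 16 NASH cells) held *Flt1* at 1739 CPM and *Kdr* at 4692 CPM, with the endothelial markers at 60.6% to 84.6% of the LSEC-like level.

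In LSEC-like cells *Kdr* and *Nrp1* were lower and *Flt4* and *Flt1* were higher in the NASH library. *Nrp1* stood at 1420 CPM in the control and 979 in NASH, a log2 ratio of -0.54 (-0.61 to -0.46). *Kdr* stood at 6750 and 5430 CPM, a log2 ratio of -0.32 (-0.35 to -0.28). In the 2 LSEC-like clusters the log2 ratio of *Nrp1* was -0.56 in *Lyve1*-led and -0.49 in *Dll4*-led cells, and that of *Kdr* was -0.30 and -0.32. *Flt4* stood at 2130 CPM in the control and 2540 in NASH, a log2 ratio of 0.26 (0.20 to 0.31), and *Flt1* at 1600 and 1800, a log2 ratio of 0.17 (0.10 to 0.23). *Nrp2*, at 795 and 760 CPM, had a ratio of -0.06 with an interval that includes 0 (-0.16 to 0.03). No member reached the 1.5-fold by which genes were counted as changed, a size that 9.93% of the 6242 genes with at least 50 UMIs in LSEC-like cells reached. Of the 889 genes with at least 1000 UMIs in these cells, 27 had a lower ratio than *Nrp1* and 99 a lower ratio than *Kdr*, while 143 had a higher ratio than *Flt4*. *Flt1* was exceeded by 223 of them. The summed level of the 18 LSEC markers was 66310 CPM in the control and 59180 in NASH, and the part of this in the *Kdr* and *Nrp1* values was not tested.

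A second clustering of the endothelial cells alone, added after the values were seen, placed most LSEC-like cells in 4 subclusters, differently for the diets. A *Gatm*-led subcluster held 706 control and 427 NASH cells, a shallow one led by *Gm10600* 338 and 661, one led by *Pdgfb* 33 and 400, and one led by *Erg* 125 and 39. These counts, and the values below, include any VEC-like cells that fell in the same subclusters. In the *Pdgfb*-led one these were 1 control and 25 NASH *Bmp4*-led cells. *Kdr* was lower in NASH in the *Gatm*-, *Gm10600*- and *Erg*-led subclusters, with log2 ratios of -0.22, -0.38 and -0.74, and was at 4673 and 5213 CPM in the *Pdgfb*-led one (0.15, -0.03 to 0.35). *Nrp1* had ratios of -0.52 and -0.41 in the first 2, while its interval included 0 in the *Erg*-led (-0.44, -1.07 to 0.10) and *Pdgfb*-led cells (0.11, -0.32 to 0.62). *Flt4* was higher in the first 2 and in the *Pdgfb*-led cells (0.22, 0.25 and 0.41), and had -0.02 in the *Erg*-led cells. The ratio of *Flt1* had an interval that includes 0 in all 4, from -0.36 in *Erg*-led to 0.09 in *Gatm*-led cells. *Flt1* was at 2172 CPM in control and 2209 CPM in NASH *Pdgfb*-led cells and at 1541 and 1641 CPM in *Gatm*-led cells. In the *Erg*-led cells *Flt1* was at 2247 CPM in the control and 1744 in NASH, and in the *Gm10600*-led cells at 1606 and 1604. The NASH class held more *Pdgfb*-led and fewer *Erg*-led cells than the control class. The part of either in the higher *Flt1* of the NASH class was not tested.

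In VEC-like cells *Kdr* was higher in NASH, a difference that depended on how the cells were grouped. *Kdr* stood at 2160 CPM in the control and 2700 in NASH, a log2 ratio of 0.33 (0.22 to 0.43). *Flt4* had 588 and 840 CPM, a log2 ratio of 0.51 (0.31 to 0.72), and *Flt1*, at 2090 and 2270 CPM, had a ratio of 0.12 (0.01 to 0.23), which was -0.017 in the finer clustering of resolution 1.0. *Nrp1* (892 and 850 CPM, -0.07) and *Nrp2* (542 and 611 CPM, 0.17) had intervals that include 0. None of the 5 reached 1.5-fold, which 14.8% of 4464 genes did. In the *Bmp4*-led cells *Flt4* had 470 control and 831 NASH CPM, a log2 ratio of 0.82 (0.56 to 1.09), past 1.5-fold, as were 18.1% of 3928 genes in that cluster. *Kdr* had 2070 and 2720 CPM in these cells, a log2 ratio of 0.39 (0.27 to 0.52). In the *Gja5*-led cells, 55 in the control and 74 in NASH, every interval included 0, and none of the 5 genes reached 1.5-fold, which 14.8% of 1274 genes there did. *Kdr* had 2350 and 2640 CPM there and *Flt4* 846 and 886.

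The second clustering gave smaller differences for *Kdr* and *Flt4* and a larger one for *Nrp1*. Its *Bmp4*-led subcluster held 130 control and 258 NASH cells, of which 90 and 226 came from the *Bmp4*-led cluster above and 40 and 31 from the *Lyve1*-led one. *Kdr* was at 2603 CPM (2437 to 2777) in the control and 2627 (2509 to 2749) in NASH in these cells, a log2 ratio of 0.01 (-0.10 to 0.13). *Flt4* was at 583.2 and 769.8 CPM, a ratio of 0.40 (0.17 to 0.64) that did not reach 1.5-fold, and *Nrp1* at 1018 and 866.7 CPM (-0.23, -0.42 to -0.04). With the VEC-like class drawn from the subclusters, *Kdr* had a ratio of 0.06 and *Flt4* one of 0.34.

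Markers of other cells moved with the *Bmp4*-led values. The 13 stellate cell or fibroblast markers summed to 2991 CPM in the 97 control cells and 509 CPM in the 257 NASH cells, with 11 and 10 of them detected. *Dcn*, which encodes the matrix proteoglycan decorin, made up 1722 of the 2991 CPM and came from 9 control cells, while *Pdgfrb* and *Des* had no UMI. The 18 LSEC markers summed to 18070 and 24010 CPM, and the 21 VEC markers to 12280 and 8203 CPM. Without cells that held a UMI of *Dcn*, *Col1a1*, *Col1a2* or *Col3a1*, the log2 ratios of *Kdr* (0.38) and *Flt4* (0.83) were about as large. That of *Flt1* turned from 0.07 to -0.15 (-0.27 to -0.02). The part of the LSEC and VEC markers in these values was not tested.

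**Figure D2:**
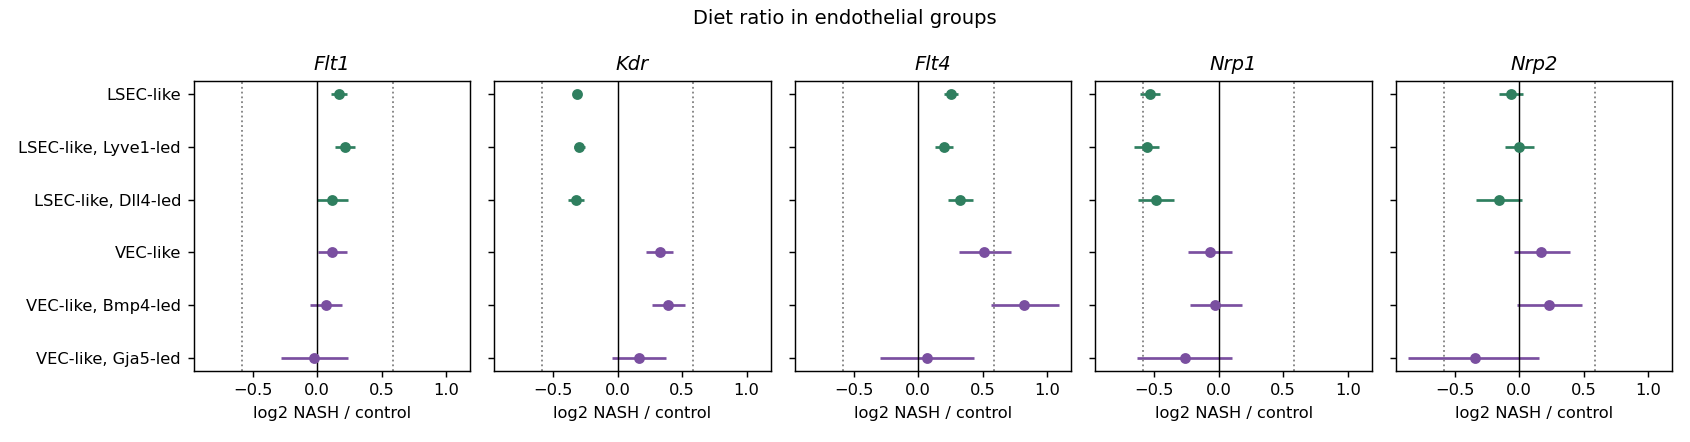
Log2 ratio of NASH to control for each gene in the LSEC-like (green) and VEC-like (purple) classes and their clusters. Bars are 95% intervals for counting error only and dotted lines mark 1.5-fold. *Kdr* lies at -0.32 in LSEC-like and 0.33 in VEC-like cells (0.06 when the latter are drawn from subclusters), and *Nrp1* lies below 0 in the LSEC-like clusters with intervals clear of 0.

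The sum over all cells did not show the LSEC-like pattern. Over all kept cells *Kdr* stood at 1650 CPM in the control and 1740 in NASH, a log2 ratio of 0.08, and *Nrp1* at 414 and 408, a ratio of -0.02. *Flt1* and *Flt4* had ratios of 0.66 and 0.60. The share of endothelial cells, given above, differed between the libraries, and with sums over all cells the number of endothelial cells and the level per cell cannot be told apart.

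The share of each receptor among the *Flt1*, *Kdr* and *Flt4* UMIs of the same cells does not use the library total. In LSEC-like cells *Kdr* supplied 64.4% (63.8 to 65.0) of these UMIs in the control and 55.6% (54.9 to 56.2) in NASH. The *Flt4* share was 20.3% and 26.0%, and the *Flt1* share 15.3% and 18.5%. None of these pairs of intervals overlapped. In *Bmp4*-led cells *Flt1* supplied 47.4% in the control and 40.3% in NASH, *Kdr* 42.8% and 45.7%, and *Flt4* 9.74% and 14.0%. The *Flt1* share of *Gja5*-led cells, 34.3% and 31.8%, lay between that of *Bmp4*-led and LSEC-like cells. Monocyte or macrophage-like cells had a *Flt1* share of 41.1% (33.9 to 48.5) and 36.2% (32.6 to 39.8), higher than the 15.7% of the control and 20% of the NASH B cell-like cells.

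**Figure D3:**
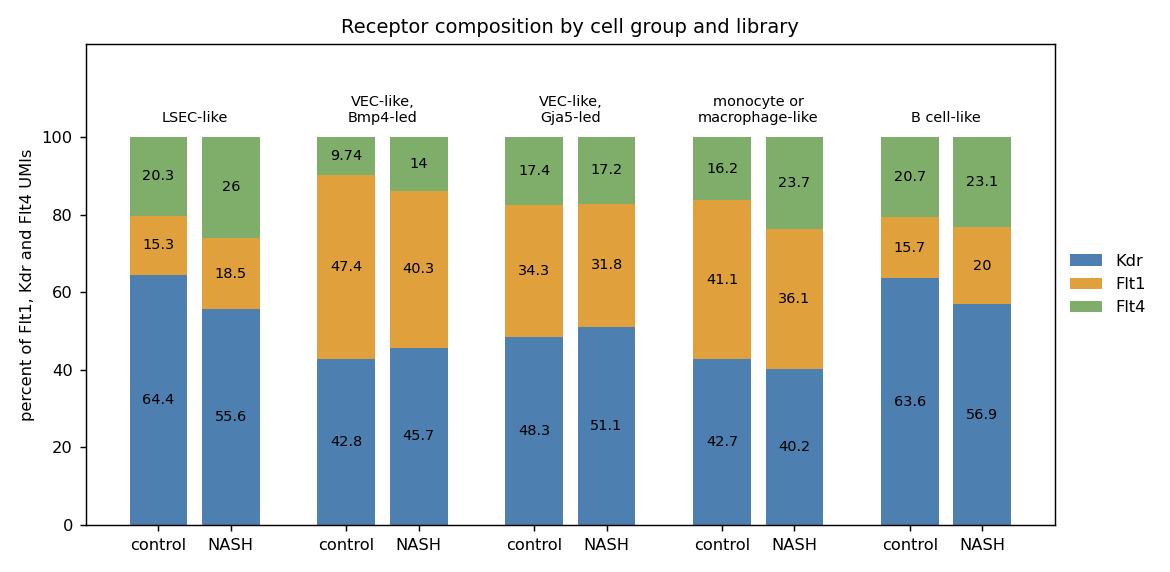
Percent of the Flt1, Kdr and Flt4 UMIs that came from each gene, in 5 cell groups and both libraries, as stacked bars that sum to 100. *Kdr* makes up 64.4% of the control and 55.6% of the NASH LSEC-like bar, and the B cell-like bars follow the LSEC-like bars of their own library.

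Detection of all 3 receptors in the same cell was more frequent in the NASH library in both endothelial classes, but not beyond the intervals in each cluster. In cells thinned to 1000 UMIs, *Flt1*, *Kdr* and *Flt4* were all found in 60.4% (57.2 to 63.5) of control and 68.3% (65.3 to 71.1) of NASH LSEC-like cells. In VEC-like cells the share was 28.1% (21.0 to 36.1) and 42.5% (37.0 to 48.0). Among the clusters, the intervals were apart in *Dll4*-led (56.9% and 69.8%) and *Bmp4*-led cells (23.9% and 43.3%) and overlapped in *Lyve1*-led (62.0% and 67.4%) and *Gja5*-led cells (35.2% and 39.4%). Only 1 of 969 control and 0 of 1030 NASH LSEC-like cells had none of the 3. In B cell-like cells all 3 were found in 2.06% and 1.54%.

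The genes also differed along the sinusoid as ranked by landmark genes. LSEC-like cells were ranged by the share of landmark UMIs from 5 genes of the central side (such as *Kit* and *Cdh13*) against 8 of the portal side (such as *Efnb2* and *Msr1*), with up to 1/3 as the portal and at least 2/3 as the central range. At least 3 landmark UMIs were found in 1213 of 1261 control and 1513 of 1575 NASH cells. The ranges are cuts of a score and not cell types, and 195 control and 316 NASH cells lay within 0.05 of a limit. *Flt1* stood at 1454 CPM in the portal and 1899 in the central range of the control, and at 1603 and 2048 in NASH, log2 ratios of 0.39 (0.27 to 0.50) and 0.35 (0.24 to 0.46). *Flt4* ran the other way, from 2191 to 1728 CPM in the control and from 2715 to 2199 in NASH, log2 ratios of -0.34 and -0.30. *Nrp1* was lower in the central range in both libraries, by log2 ratios of -0.32 and -0.34. *Kdr* was highest in the middle range of the control, at 7780 CPM against 6765 in the portal range. In NASH the middle (5675) and portal range (5541) did not differ beyond their intervals. The central range was lowest, at 5790 and 5054 CPM. *Nrp2* had a ratio of -0.22 (-0.41 to -0.04) in the control and 0.10 (-0.07 to 0.27) in NASH. Within every range, *Kdr* and *Nrp1* were lower and *Flt4* higher in NASH than in the control.

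The ranges held different numbers of cells in the libraries: 759 portal, 212 middle and 242 central in the control, and 644, 416 and 453 in NASH. The landmark genes themselves differed between the diets, *Msr1* with a log2 ratio of -1.29 and *Fabp4* with 1.37 in LSEC-like cells. With both left out, the NASH ratio of *Nrp1* between ranges was -0.18 (-0.38 to 0.02). The 19 VEC markers that are no landmarks summed to 371.1 CPM in the portal and 884.6 in the central range of the control, and to 423.2 and 930.3 in NASH. Their part in the *Flt1*, *Kdr* and *Flt4* values was not tested.

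**Figure D4:**
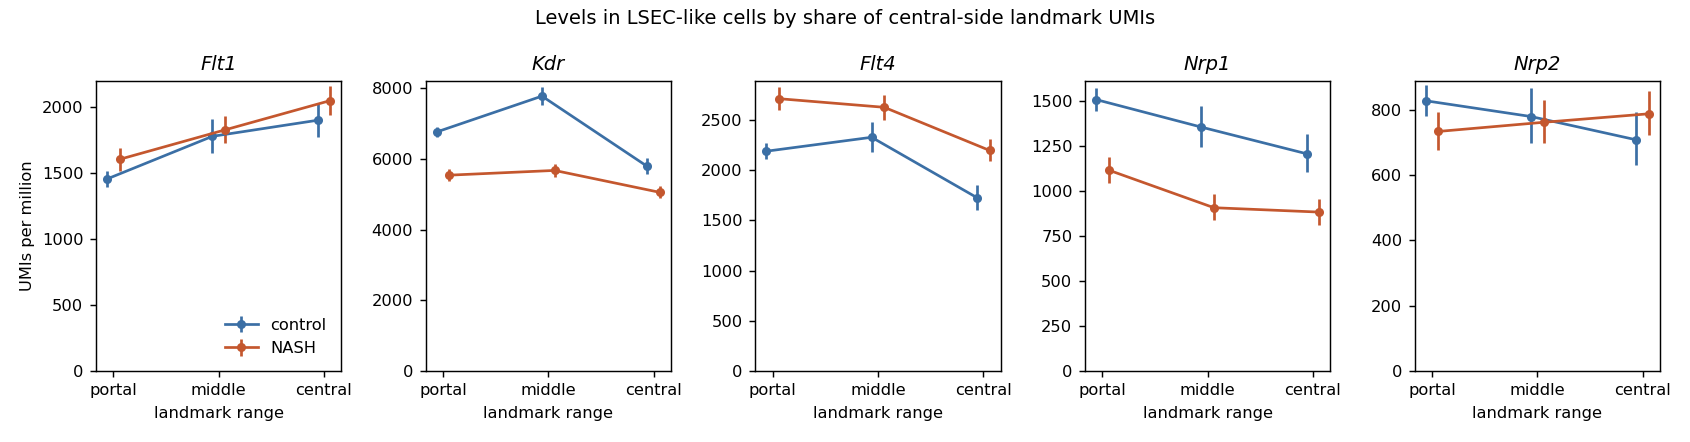
Level of each gene (CPM, axis from 0) in LSEC-like cells of the portal, middle and central landmark range, for the control (blue) and NASH (orange) library. Bars are exact Poisson 95% intervals. *Flt1* is higher and *Flt4* lower in the central than in the portal range in both libraries, and the NASH line of *Kdr* lies below the control line in each range.

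Myeloid cells showed few diet values that stood clear of background. In monocyte or macrophage-like cells *Nrp2* had a control level of 100 CPM and a NASH level of 175, a log2 ratio of 0.79 (0.36 to 1.28). It stood at 12.6% and 23.0% of the LSEC-like level of the same library, while the endothelial markers had medians of 2.49% and 3.78%. With these cells thinned to 1000 UMIs, *Nrp2* was found in 9.86% of control and 11.8% of NASH cells, with overlapping intervals. The median depth before thinning was 3093 and 4048 UMIs. The class joined an *F13a1*-led cluster (121 control and 260 NASH cells) and a *Cx3cr1*-led one (31 and 94). The part of depth and of these clusters in the *Nrp2* ratio was not tested. *Nrp1* stood there at 198 and 189 CPM. In Kupffer cell-like cells *Flt4* was at 52.7 and 136 CPM, *Kdr* at 174 and 236, and *Flt1* at 41.6 and 70.0. These were 2.48% to 2.59% of the LSEC-like levels in the control and 3.88% to 5.37% in NASH, where the endothelial markers had medians of 3.13% and 4.74%. With Kupffer cell-like cells thinned to 1000 UMIs, *Flt4* was found in 3.85% (2.30 to 6.01) of control and 15.45% (12.21 to 19.18) of NASH cells. The corresponding intervals of *Kdr* and of *Flt1* overlapped. The part of background in the diet values of these 3 genes was not tested. *Nrp1* in Kupffer cell-like cells, at 147 and 143 CPM, stood at 10.3% and 14.6%. In neutrophil-like cells (440 control and 71 NASH) all 5 genes were higher in NASH, as were the endothelial markers, at medians of 1.63% and 7.09% of the LSEC-like level.

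The genes most like each receptor gene over 33 cluster and library profiles were endothelial genes. The profiles share 2 libraries and the endothelial contrast, so that the correlations are a description. *Kdr* was nearest to *Clec4g* (Pearson r = 0.98), which encodes a C-type lectin of LSECs, *Adgrf5* (0.98) and *Ehd3* (0.98). *Flt4* was nearest to *Oit3* (0.98), *Cyp4b1* (0.97) and *Gpihbp1* (0.96). *Flt1* was nearest to *Cd300lg* (0.96), *Nrp2* (0.96) and *Ptprb* (0.95), which encodes the endothelial phosphatase VE-PTP. *Nrp2* in turn had *Flt1* (0.96), *Fcgr2b* (0.93) and *Cd300lg* (0.93) as its nearest genes. *Nrp1* followed this pattern least, with *Kank3* (0.84), *Plxnd1* (0.83), a plexin gene, and *Klhl5* (0.83). These were the highest of 7120 genes for each.

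Other genes of the VEGF pathway were counted past 1.5-fold by lists fixed by name, beside 312 of all 6242 genes higher and 308 lower in LSEC-like cells. The lists were chosen with earlier results of these data known, so their counts in both classes are only a description. Of 10 VEGF-induced genes with at least 50 UMIs, 4 were higher and 2 lower in NASH, with a median log2 ratio of 0.44 against -0.005 over all genes. *Pdgfb*, which encodes the ligand that recruits pericytes, stood at 50.3 CPM in the control and 167 in NASH (log2 1.72, 1.42 to 2.04). It was at 47.4 and 114 CPM within the *Gatm*-led and at 63.3 and 132 within the *Gm10600*-led subcluster. The subcluster it leads, with 3 control *Pdgfb* UMIs, held 33 control and 400 NASH cells. *Nrarp*, a feedback gene of Notch signalling, stood at 61.8 and 162 CPM (1.39), and *Plaur*, the urokinase receptor gene, at 19.6 and 33.5 (0.77). *Hbegf* was lower, at 39.6 and 16.7 CPM (-1.23). *Esm1*, the endocan gene, was lower as well (90.0 and 55.7 CPM, -0.69) and the immediate early gene *Egr1* higher (56.3 and 90.5 CPM, 0.68). The last 2 are named after their values were seen.

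Of 13 hypoxia response genes 4 were higher and none lower in LSEC-like cells, with a median of 0.06. They were *Ddit4*, an inhibitor of mTORC1, at 67.8 and 157 CPM (log2 1.21), the glycolytic genes *Pfkfb3* (60.5 and 106, 0.81) and *Pfkl* (70.8 and 110, 0.63), and *Adm*, the adrenomedullin gene (89.5 and 143, 0.68). Of 7 genes of ligand binding and processing, *Ctgf*, a matrix protein gene whose product can bind VEGF-A, had 99.3 and 667 CPM (2.75, 2.55 to 2.95). *Gpc1*, a glypican gene, was lower at 35.0 and 18.1 CPM (-0.94). Among 16 receptor partners, phosphatases and endocytic genes the integrin gene *Itgb3* was higher (198 and 307 CPM, 0.63) and none was lower, with a median of -0.12. *Itga9*, whose integrin cooperates with VEGFR3, was at 1030 and 691 CPM (-0.57), and *Dab2* and *Epn2*, endocytic adaptor genes, had ratios of -0.53 and -0.54. None of 6 plexin genes passed 1.5-fold. *Plxnc1* stood at 2340 and 1700 CPM (-0.46) and *Plxnd1* at 577 and 470 (-0.30). Of 38 signalling genes, *Hspb1* was higher (65.2 and 116 CPM, 0.83), and *Prkca* (16.2 and 7.69 CPM, -1.05) and *Pik3cb* (14.9 and 8.60, -0.78, with an interval that includes 0) lower. Fewer than 60 UMIs lay behind each of the last 2.

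In VEC-like cells 331 of 4464 genes were higher and 330 lower by 1.5-fold. All 3 VEGF-induced genes with enough UMIs passed: *Nrarp* (92.8 and 182 CPM, log2 0.96) and *Pdgfb* (97.0 and 190, 0.96) were higher and *Egr1* (169 and 93.8, -0.85) lower. Of 13 hypoxia response genes *Pfkfb3* (50.6 and 123 CPM, 1.26) and *Adm* (33.7 and 79.6, 1.20) were higher and none was lower. *Ctgf* was higher at 557 and 2080 CPM (1.90), as the only one of 6 genes of its list to pass. *Itgb3* was higher (0.62) and *Efnb2*, the ephrin-B2 gene, lower (-0.69) among the 16 receptor partners. Of 6 plexin genes *Plxna4* was higher (0.61) and *Plxna1* lower (-0.62, with an interval of -1.29 to 0.08). Of 33 signalling genes *Akt2* (-0.69) and *Ppp3cb* (-0.66) were lower and none was higher.

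**Figure D5:**
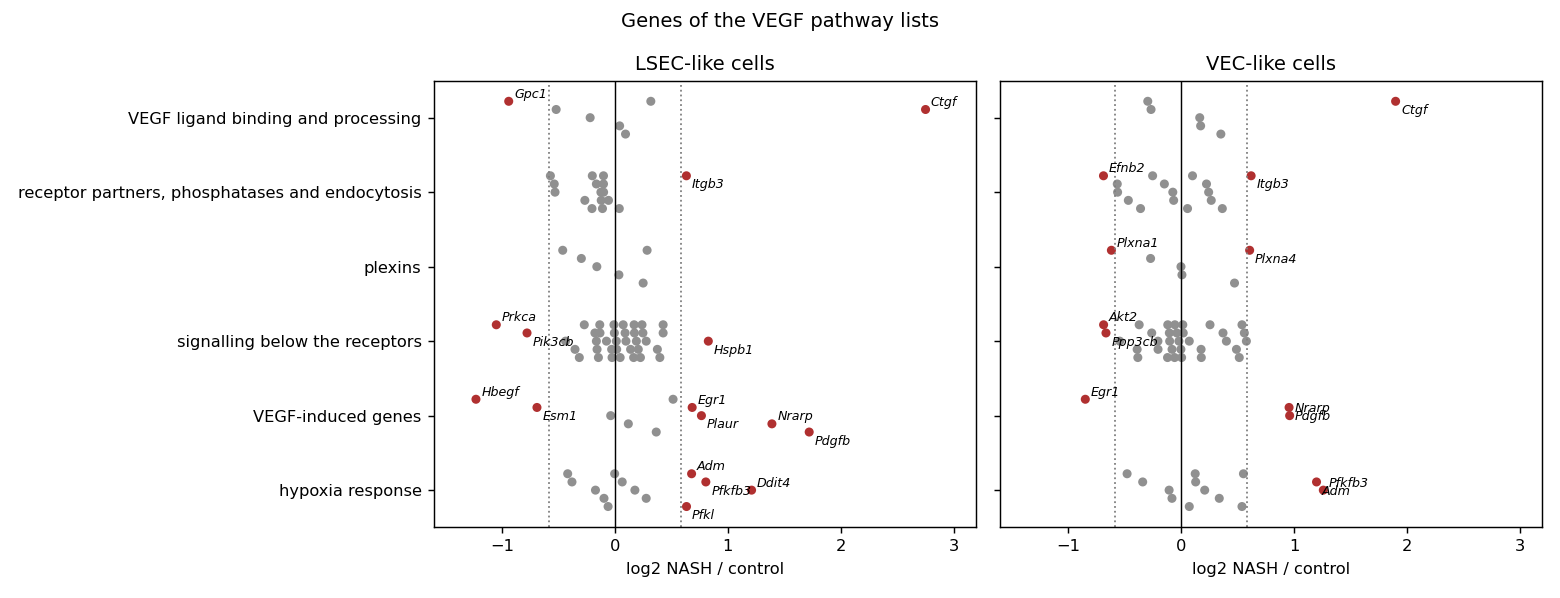
Log2 ratio of NASH to control for each gene of 6 VEGF pathway lists with at least 50 UMIs, in LSEC-like (left) and VEC-like (right) cells. Red points with names are past 1.5-fold (dotted lines) and grey points are not. *Ctgf*, at 2.75 and 1.90, *Pdgfb* and *Nrarp* lie to the right in both panels.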

How the data were processed

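UMI counts per gene and cell of 1 control and 1 NASH library were used as the authors deposited them. The authors made these counts with the BD Rhapsody whole transcriptome pipeline and the GRCm38 genome, without normalization. For the gene annotation behind them, a version is not given in the sources used. The genes run in alphabetical order up to *Rad54l2*, and later genes were not analysed here. The NASH table was named by the column order of the control table. Log totals of both libraries correlated over columns (r = 0.97, and 0.975 to 0.987 in the 101 columns around each of the 6 genes, at most 0.30 when shifted by 1 column). The control library held 4336 cells and 11452972 UMIs and the NASH library 3893 cells and 9326723 UMIs. Cells with at least 500 UMIs and 200 genes were kept, with medians of 1683 and 1654 UMIs. No mitochondrial filter was applied, since those genes were not analysed here.

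Clusters were made in Seurat 5.3.0 (R 4.3.3) with the study's settings (2000 variable genes, 50 principal components, resolution 0.6), libraries merged without integration. Of the 6 genes only *Pgf* was among the variable genes, and it was taken out, which left 1999. A cluster was named from the marker list with the most genes among its 50 leading genes, at least 3. Clusters of 96, 62 and 25 cells stayed unnamed. Names were rebuilt here, so class shares may differ from the study's. Doublets were kept, and Scrublet (scanpy 1.11.5) called 52 control and 3 NASH cells, the latter too few to rely on.

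UMIs were summed per class and library (numpy 2.4.6, scipy 1.17.1, pandas 2.3.3) and given as CPM with exact Poisson 95% intervals. Ratios are log2 of NASH over control CPM with 0.5 UMI added, with the interval of the exact binomial share of the summed UMIs. Shares carry exact (Clopper-Pearson) intervals. All intervals cover counting error only. In simulated sums with 200 genes changed 2-fold the 1.5-fold rule found 95.8% of those tested in LSEC-like cells, over 6211 genes, and 93.4% in VEC-like cells, over 4448 genes. Of unchanged genes 1.74% and 4.92% passed it. The simulated sums held Poisson counting error only, so these shares do not cover differences between cells, mice or libraries. Promoters came from RefSeq (GRCm38.p6), where all 6 genes matched, and positions from GENCODE M21.

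The genes named are the 6 genes, up to 4 genes of each pathway list with the largest ratios in each endothelial class, the 3 nearest genes of each, and leading genes of endothelial clusters. The 6 genes, the pathway lists and the landmarks were chosen with earlier results of these data known. *Figf* was not in the tables. Alternatives added after seeing the values were leaving out endothelial cells with lymphoid or myeloid UMIs, leaving out myeloid-led and fibroblast-led subclusters of a second clustering of the endothelial cells, drawing the classes from those subclusters, leaving out *Bmp4*-led cells with collagen or *Dcn* UMIs, and dropping *Msr1* and *Fabp4* from the landmarks.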

Additional observations from a re-analysis of the deposited data

Results flagged for a closer look

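Of the 5 genes and the pathway lists, *Kdr*, *Cdh5*, *Egr1* and *Ptprb* differed between the diets in opposite directions in the 2 endothelial classes, with counting intervals that exclude 0 on both sides. The log2 ratio of NASH to control of *Kdr* was -0.32 in LSEC-like and 0.33 in VEC-like cells. That of *Egr1* was 0.68 in LSEC-like and -0.85 in VEC-like cells. *Cdh5*, the VE-cadherin gene, had -0.10 and 0.37, and *Ptprb* -0.057 and 0.24. With 1 library per diet the difference between the classes was not tested for any of them. The *Kdr* ratio of VEC-like cells was 0.14 when *Pgf* was kept among the variable genes of the clustering and 0.060 when the class was drawn from the second-round subclusters. In the *Pdgfb*-led subcluster, which held mostly LSEC-like cells, the *Kdr* ratio was 0.15 (-0.03 to 0.35).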

How the results depend on the processing

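No paired analysis was possible because each diet is 1 library, and no library could be left out. Of 130 diet ratios of the 5 genes under alternatives, 112 stayed within the counting interval of the main ratio. A turned direction was counted only where the main interval excluded 0. Sign changes of other ratios, such as *Flt1* in *Bmp4*-led cells (main ratio 0.07), were not counted. By this rule the direction was turned in 2, both for *Flt1* in VEC-like cells. It was -0.017 at resolution 1.0, where *Flt4* was 0.84. With classes drawn from the second-round subclusters it was -0.0034, where *Kdr* was 0.060 and *Nrp1* -0.25. In *Bmp4*-led cells drawn that way *Kdr* was 0.013, *Flt4* 0.40 and *Nrp1* -0.23. *Flt1* there was -0.15 without cells holding collagen or *Dcn* UMIs and -0.11 without the myeloid-led and fibroblast-led subclusters. With *Pgf*, the only one of the 6 genes among the variable genes, kept in the clustering, VEC-like *Kdr* was 0.14 and *Nrp1* -0.29. With cells weighed equally, LSEC-like *Flt1* was 0.078 and *Kdr* -0.37. In cells with at least 1000 UMIs LSEC-like *Kdr* was -0.27. Without the 1329 LSEC-like and 291 VEC-like cells that held lymphoid or myeloid UMIs, LSEC-like *Kdr* was -0.37 and VEC-like *Flt4* 0.31. Without the 43 cells of the myeloid-led and fibroblast-led subclusters, VEC-like *Flt1* was 0.0048. The cause of these moves was not tested.

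In an endothelial class drawn by markers without clustering, CPM in the control and NASH library were 1622 and 1841 for *Flt1*, 5835 and 4541 for *Kdr*, and 717.6 and 675.8 for *Nrp2*, against 1686 and 1941, 5979 and 4628, and 752.2 and 716.5 in the clusters. Without thinning, the shares of LSEC-like cells with a UMI were 82.1% for *Flt1*, 97.6% for *Kdr*, 88.6% for *Flt4*, 72.2% for *Nrp1* and 59.3% for *Nrp2*, and those of VEC-like cells 95.4%, 94.8%, 78.3%, 83.2% and 69.8%. Thinning lowers depth by construction. In LSEC-like NASH cells with at least 1000 UMIs, *Kdr* made up 56.5% and *Flt4* 25.1% of receptor UMIs. In VEC-like control cells the *Flt1* share was 41.1% with *Pgf* kept in the clustering. Without cells of lymphoid or myeloid UMIs the shares there were 38.6% for *Flt1*, 47.6% for *Kdr* and 13.8% for *Flt4*. Between landmark ranges, NASH *Nrp1* was -0.18 without *Msr1* and *Fabp4*.

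A minimum of 20 UMIs counted 543 genes higher and 499 lower in LSEC-like cells and 590 and 716 in VEC-like cells, and one of 100 UMIs 196 and 198, and 181 and 142. At 20 UMIs 3 signalling genes were higher in LSEC-like cells, and in VEC-like cells 1 signalling gene was higher and 1 gene of ligand binding lower. At 100 UMIs 0 signalling genes were lower in LSEC-like cells, and in VEC-like cells 0 plexin genes were lower, 1 signalling gene was lower and 1 hypoxia gene higher. Fewer genes are tested at higher minimums. The control values of VEC-like cells rest on 97 *Bmp4*-led and 55 *Gja5*-led cells.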
